A study of Homo sapiens with 6 samples.

Results

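Eph receptors and their ligands, the ephrins, were followed in NSCLC cell lines in which MALAT1, a long non-coding RNA of the nucleus, had been knocked down with siRNA. The 10 genes described here were 5 receptors (EPHA2, EPHA4, EPHB2, EPHB3 and EPHB4) and 5 ephrins (EFNA1, EFNA4, EFNA5, EFNB1 and EFNB2), taken by gene symbol from a table of 46427 genes. They were chosen by measured values: EPHA2 had been seen to be lower after the knockdown in each line, and the family was then taken for comparison. For this reason the differences between si-MALAT1 and control libraries are given for these 10 genes as a description and without a test. The other 12 genes of the family in the table served for comparison.

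The study sequenced RNA from 3 established lung cancer cell lines, H460 (large cell carcinoma), H1299 (from a lymph node metastasis) and A549 (adenocarcinoma). Each line gave 1 control library and 1 library of cells transfected with si-MALAT1, 6 libraries in all. The labels call the control cells untreated, while the methods describe both untreated cells and a si-Control, so that transfection itself cannot be told apart from the loss of MALAT1 in these comparisons. With 1 library per line and condition there was no replicate within a line, and nothing states that the cultures were grown separately in time. The values are read counts per gene from StringTie on the genome build hg38, and the TPM values (transcripts scaled to a common library sum, which allow for gene length) deposited beside them. A log2 fold change below is that of si-MALAT1 against control on the scale of log2(scaled count + 1), where counts were scaled by the median-ratio size factors of DESeq2. Where a pair of read counts is given for a line, the control comes first and si-MALAT1 second. The bracketed interval is an exact Clopper-Pearson interval at the 95% level and covers counting error only, not the spread between cultures.

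Eph receptors are the largest family of receptor tyrosine kinases. They bind ephrins on neighbouring cells, so that contact signals into the receptor cell (forward) and into the ephrin cell (reverse). A-type ephrins are held on the membrane by a lipid anchor and bind mainly EphA receptors, while B-type ephrins span the membrane and bind mainly EphB receptors, with EphA4 binding both kinds. In epithelial cancers EphA2 is known for acting both through its ligands, which restrain the cell, and without ligand, through phosphorylation of a serine in its cytoplasmic part, which favours migration.

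The libraries held between 42506818 and 68515992 counted reads, the 2 of A549 being the smallest. MALAT1 itself was lower in each line, at 231045 against 43858 reads in H460, 407551 against 47935 in H1299 and 93747 against 14447 in A549 (log2 fold changes −2.32, −2.96 and −2.84). The keratins KRT8 and KRT18, which mark epithelial cells, had at least 11408 reads in each library. SFTPB and SCGB1A1, which mark specialised lung epithelium, and PTPRC and CD3E, which mark leukocytes, had 0 reads in all 6. Of the 6 epithelial markers listed, KRT8 and KRT18 had lower values after si-MALAT1 in each line, with 113159 against 56171 and 144327 against 68068 reads in A549. EPCAM had higher ones in each line (30 against 73 reads in H460, 23 against 43 in H1299 and 196 against 485 in A549), and KRT7, KRT19 and CDH1 went different ways between lines. Their part in the results below was not tested. The lines differed in E-cadherin, CDH1, which had 4693 and 7373 reads in A549 and at most 13 in the others. Because bulk RNA was measured, fewer cells with a transcript and less transcript per cell cannot be told apart.

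Short sequences in the 3′ UTR are printed first, because many of the genes that were lower after si-MALAT1 held them. Of the 10 members 2 held one there, which is near the share of 19.5% given below for genes in general. EPHA4, one of the 2, was lower after si-MALAT1 in H460 and higher in H1299 and A549. EPHB2, the other, had lower scaled counts in each line, with an interval that held 0 in H1299. Its TPM was lower in A549 alone. The words TGAATCA and ATGAATC (given in the sense of the mRNA and sought on that strand) came out of an earlier look at these same libraries, so that their presence supports nothing by itself. In 13277 genes with an annotated 3′ UTR and a mean of at least 50 reads, 19.5% held either word there, and 17.8% held one in the part of the mRNA before the 3′ UTR. The words overlap and were counted together, and a longer 3′ UTR has more room for them. Among these genes, 142 had at least a 1.5-fold lower count in all 3 lines after si-MALAT1, of which 100 held a word in the 3′ UTR (70.4%) and 42 did not. EPHA2 was one of the 42. Its 3′ UTR of 878 bases and the 3068 bases before it held neither word, which says only that these letters were not in these stretches. EPHA4 and EPHB2 held the word once each and EPHA7, a receptor outside the 10, held it at 2 places. Each window is given 5′ to 3′ on the strand of the mRNA, from the hg38 genome with the deposited RefSeq annotation, with the 7-base word in capitals and 10 bases on each side.
EPHA4, 3′ UTR, chr2:221419579-221419605, minus strand: tgaactcatcTGAATCAtcagttcctt
EPHB2, 3′ UTR, chr1:22920588-22920614, plus strand: gaggtgcctgTGAATCActccgtcatc
EPHA7, 3′ UTR, chr6:93240069-93240095, minus strand: ttcttcaacaTGAATCAtaagtctctt
EPHA7, 3′ UTR, chr6:93240462-93240488, minus strand: cactattagtTGAATCAtattgtatac
The 3′ UTRs differed widely in length, with 7930 bases for EPHB2, 3485 for EPHA4 and 786 for EPHB3. The 5 ephrins, EPHB3 and EPHB4 held neither word in the 3′ UTR. Before the 3′ UTR, EPHA4 and EPHB3 among the 10, and EPHA1 and EPHA7 among the other family genes, held a word.

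EPHA2 (gene ID 1969, chr1:16124337-16156104, minus strand) encodes the receptor that opened the comparison. Its pairs of read counts were 5951 and 3009 for H460, 11957 and 6269 for H1299, and 5839 and 2368 for A549. The si-MALAT1 library lay below the control in every line. On the log2 scale the fold change came to −0.90 [−0.97, −0.84] for H460, −0.80 [−0.84, −0.76] for H1299 and −1.45 [−1.52, −1.38] for A549, with a mean of −1.05 ± 0.35 (SD, n = 3 lines). Genes read at least once in every library numbered 17834, and 5.13% of them lay below EPHA2 in H460, 6.71% in H1299 and 1.81% in A549. In TPM, which sets levels of different genes on 1 scale, EPHA2 stood at 26.0 and 12.7 for H460, 52.9 and 31.7 for H1299, and 42.5 and 15.5 for A549. Its gene body overlaps LOC101927479 on the opposite strand, without an overlap of exons.

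EPHA4 (gene ID 2043, chr2:221418027-221574202, minus strand), the receptor that takes ephrins of both classes, did not move one way. H460 gave 10317 and 6900 reads, against 427 and 657 for H1299 and 318 and 502 for A549. The log2 fold change was −0.50 [−0.54, −0.45] in H460, where the gene was most abundant, and 0.75 [0.57, 0.93] in H1299 and 0.51 [0.31, 0.72] in A549, where it was scarce. The same signs were seen under each other scaling, including TPM and FPKM.

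EPHB2 (gene ID 2048, chr1:22710770-22921500, plus strand) encodes a receptor of B-type ephrins known for its role in sorting cells of the intestinal crypt. A549 gave 1980 and 1272 reads, with a log2 fold change of −0.78 [−0.89, −0.68]. In H460 it had 81 and 46 reads (−0.72 [−1.29, −0.20]) and in H1299 532 and 433 reads (−0.17 [−0.35, 0.02]). The deposited TPM of EPHB2 took the opposite sign in these lines, at 0.125 and 0.139 in H460 and 0.891 and 1.93 in H1299, while it was also lower in A549 (8.57 and 3.48). For EPHB2, therefore, counts and TPM gave the same sign in A549 alone.

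EPHB4 (gene ID 2050, chr7:100802565-100827523, minus strand), the receptor of ephrin-B2 that is known from the parting of arteries and veins, kept to the narrowest range of TPM relative to its level among the 5 receptors (18.1 to 26.0). It had 4891 and 4665 reads for H460, 6483 and 5034 for H1299 and 3114 and 3312 for A549. Fold changes on the log2 scale were 0.01 [−0.04, 0.07], −0.23 [−0.29, −0.18] and −0.06 [−0.13, 0.02], and the sign in H460 depended on the scaling. An exon of EPHB4 overlaps SLC12A9 on the opposite strand, and whether the counting used strand is not given in the sources used here. EPHB3 (gene ID 2049, chr3:184561785-184582408, plus strand), a close relative of EPHB2, was near the limit of detection, with 36 and 24 reads for H460, 17 and 32 for H1299 and 36 and 37 for A549. Its interval held 0 in H460 (−0.49 [−1.31, 0.28]) and A549 (−0.10 [−0.81, 0.60]) and lay above 0 in H1299 (0.99 [0.15, 1.98]).

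**Figure D1:**
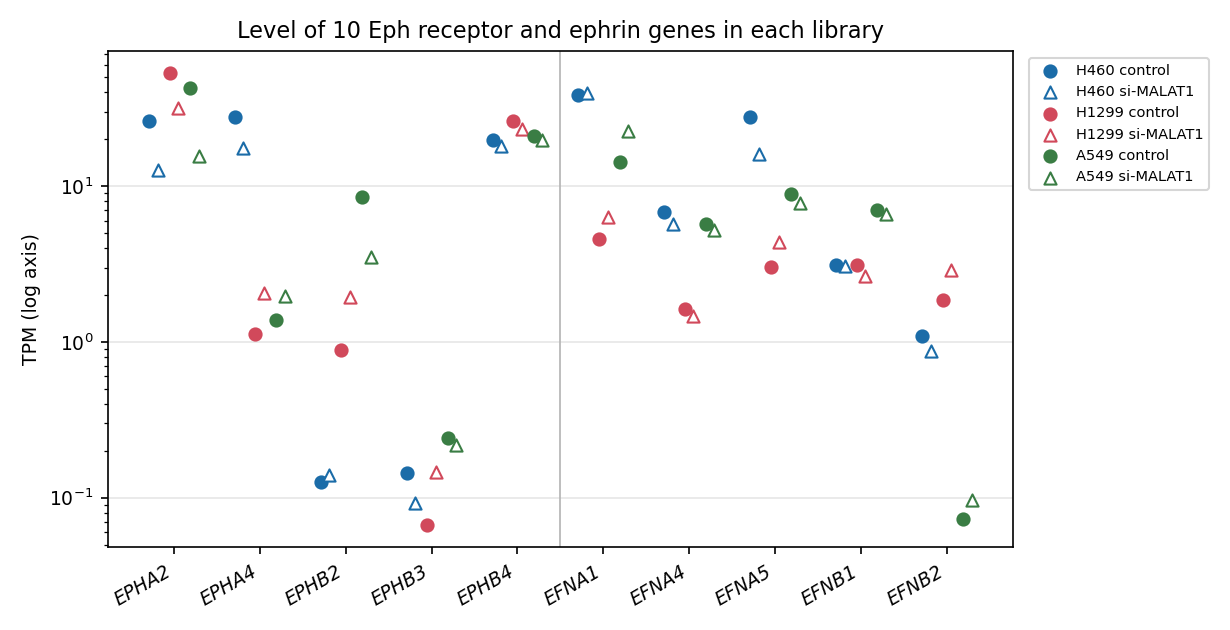
Level of each of the 10 genes in TPM on a log axis in the 6 libraries, 1 point per library, with control and si-MALAT1 marked apart for each line. EPHA2 stood between 12.7 and 52.9 TPM and was lower after si-MALAT1 in each line, EPHB4 stood between 18.1 and 26.0, and EPHA4 was at 17.6 or more in H460 and at most 2.05 in the other lines.

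EFNA1 (gene ID 1942, chr1:155127876-155134899, plus strand) encodes ephrin-A1, the main ligand of EphA2 in epithelial cells. The pairs of reads were 3462 and 3725 for H460, 412 and 495 for H1299, and 772 and 1366 for A549. The log2 fold change was 0.19 [0.12, 0.25], 0.39 [0.20, 0.59] and 0.68 [0.55, 0.81], with a mean of 0.42 ± 0.25 (SD, n = 3 lines). EFNA1 was thus the one member whose interval lay above 0 in each line, as EPHA2 was the one whose interval lay below 0 in each line. In A549, where EPHA2 had its lowest fold change, EFNA1 had its highest. The other lines did not follow this, since H460 was below H1299 both in EPHA2 (−0.90 and −0.80) and in EFNA1 (0.19 and 0.39). Under another scaling the EFNA1 value in H460 was as low as 0.05, below its interval.

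EFNA5 (gene ID 1946, chr5:107376889-107670937, minus strand), ephrin-A5, is known as a guidance cue for growing axons. H460 gave 9623 and 5681 reads, H1299 995 and 1234, and A549 1737 and 1784. Log2 fold changes in this order of lines were −0.68 [−0.73, −0.63], 0.44 [0.32, 0.56] and −0.11 [−0.20, −0.01]. As for EPHA4, H460 was the line with the most reads and had a lower value after si-MALAT1, whereas H1299 had a higher one. EFNA4 (gene ID 1945, chr1:155063740-155069553, plus strand), ephrin-A4, another A-type ligand, had 498 and 422 reads for H460, 114 and 92 for H1299, and 244 and 250 for A549. Its intervals held 0 in the 3 lines, with log2 fold changes of −0.16, −0.18 and −0.11. An exon of EFNA4 overlaps DCST1-AS1, so that reads of these genes could not be parted with certainty.

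The B-type ephrins carry cytoplasmic tails that signal in reverse. EFNB1 (gene ID 1947, chrX:68829021-68842160, plus strand) had 603 and 614 reads for H460, 593 and 441 for H1299, and 817 and 852 for A549. The log2 fold change of EFNB1 was 0.11 [−0.06, 0.27], −0.30 [−0.48, −0.12] and −0.08 [−0.22, 0.06] in the same order, the sign in H460 depending on the scaling. EFNB2 (gene ID 1948, chr13:106489745-106535662, minus strand), the ligand of EphB4, had 332 and 307 reads for H460, 588 and 769 for H1299, and 33 and 48 for A549. Its interval lay above 0 in H1299 (0.52 [0.36, 0.68]) and held 0 in H460 (−0.03 [−0.26, 0.20]) and A549 (0.39 [−0.27, 1.08]). An exon of EFNB2 overlaps LOC112268109.

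**Figure D2:**
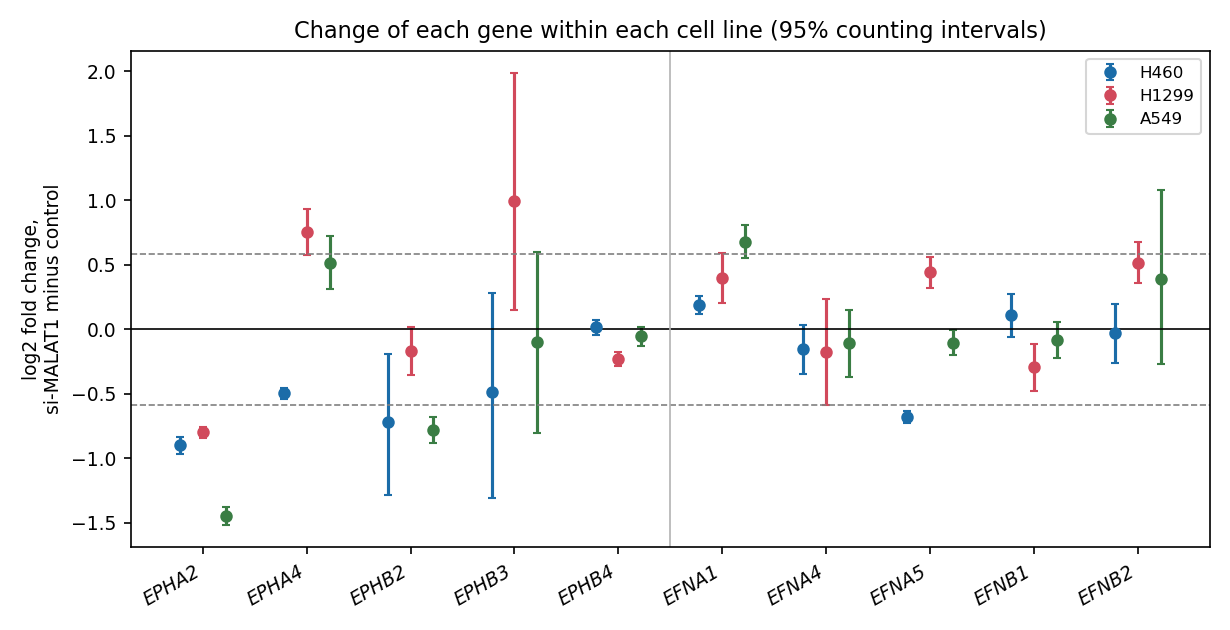
Log2 fold change of si-MALAT1 against control for each of the 10 genes in H460, H1299 and A549, with exact 95% intervals of the counting error as bars and a line at 0. EPHA2 lies at −0.90, −0.80 and −1.45, EFNA1 at 0.19, 0.39 and 0.68, and EPHA4 and EFNA5 lie on different sides of 0 in H460 and H1299.

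Counted at 1.5-fold, the 10 genes were not one-sided. In H460, EFNA5, EPHA2 and EPHB2 were lower by at least that much, 3 of 10, where 10.3% of all 17834 genes were. In H1299 it was EPHA2 alone (1 of 10, against 11.4% of all genes), and in A549 EPHA2 and EPHB2 (2 of 10, against 11.4%). In all 3 lines together it was EPHA2 (1 of 10, against 1.28%), the gene from which the choice started. No member was higher by 1.5-fold in H460 (9.5% of all genes), EPHA4 and EPHB3 were in H1299 (11.7%), and EFNA1 was in A549 (11.5%). None was higher in all 3 lines (1.19% of all genes). The median log2 fold change of the 10 was −0.32 in H460, 0.11 in H1299 and −0.09 in A549, beside 0.02, 0.02 and 0.01 over all genes. Since the members were chosen on this contrast, nothing is read from these counts.

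Receptors can be set beside each other within a library by TPM, and the sum over the 14 Eph receptor genes shows what the lower EPHA2 amounted to. This sum was 112.9 and 98.2 TPM for H460, 87.0 and 66.4 for H1299, and 84.7 and 48.3 for A549, control first. EPHA2 made up 23.01% and 12.9% of it for H460, 60.8% and 47.7% for H1299, and 50.1% and 32.1% for A549. The share of EPHA2 was thus lower after si-MALAT1 in each line, and within each condition it was lowest in H460. Its own difference was −13.3 TPM of −14.7 in the sum in H460, −21.2 of −20.5 in H1299 and −27.0 of −36.4 in A549. In H1299 the other receptors together were therefore not lower by TPM. This depends in part on EPHB2, whose TPM differed by 1.04 there although its read counts were lower (532 and 433). EPHA2 was chosen for being lower in each line, so its lower share and its part in the lower sum are no result about the family. In H460 the TPM of EPHA4 also differed, by −9.89, while EPHA3 and EPHA5, receptors outside the 10, differed by 5.69 and 4.48. In A549 EPHB2 and EPHA7 differed by −5.09 and −4.37 TPM. EPHB4 made up 17.4% and 18.4% of the sum for H460, 29.9% and 35.0% for H1299 and 24.6% and 40.8% for A549.

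The order of the receptors within a library followed from this. In the H460 control EPHA4 stood first (27.5 TPM) and EPHA2 second (26.0), and after si-MALAT1 EPHA5 stood first (25.3) and EPHA2 had rank 5. EPHA2 was first in both H1299 libraries and in the A549 control (42.5 TPM), whereas EPHB4 was first in A549 after si-MALAT1, at 19.7 beside 15.5 TPM for EPHA2. Among the ephrins EFNA1 was first in all 6 libraries, at 38.4 and 39.8 TPM for H460, 4.59 and 6.32 for H1299 and 14.2 and 22.6 for A549. The 10 genes together held from 49.5% to 93.1% of the receptor TPM and from 85.5% to 94.5% of the ephrin TPM. The lowest receptor share was that of H460 after si-MALAT1, where EPHA3 and EPHA5 stood at 21.9 and 25.3 TPM.

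**Figure D3:**
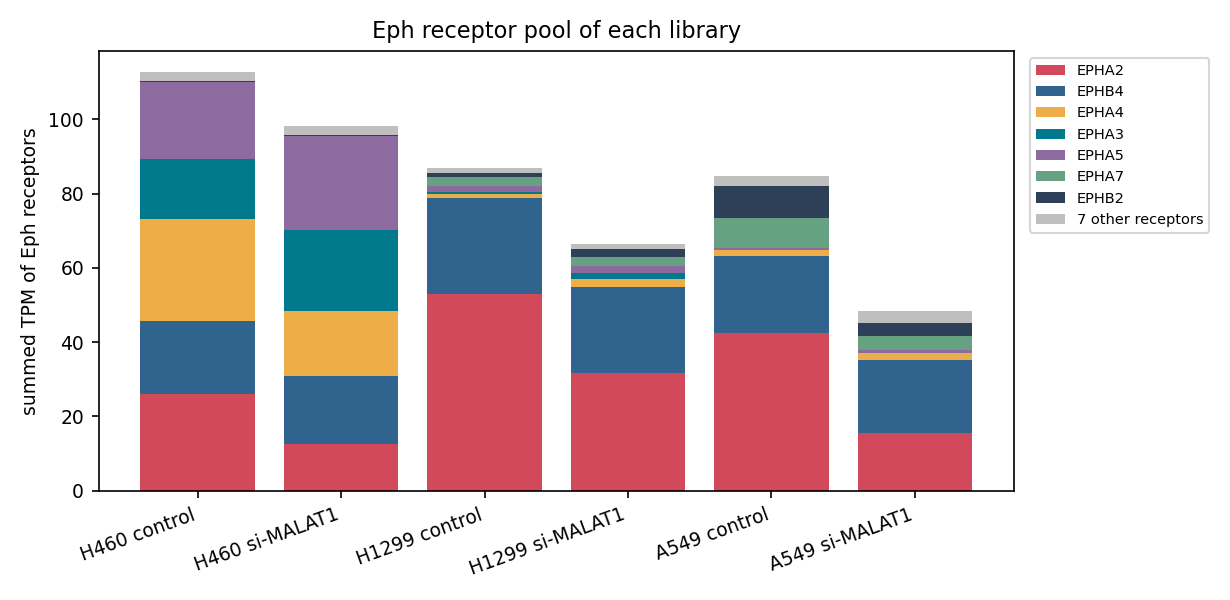
Summed TPM of the Eph receptor genes in each of the 6 libraries as stacked bars starting at 0, with the receptors that take the largest parts coloured apart. EPHA2 took from 12.9% of the sum (H460 after si-MALAT1) to 60.8% (H1299 control). The sum, which holds EPHA2 itself, was lower after si-MALAT1 in each line.

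The choice of the members did not use the differences between the cell lines, so these were tested. The test was edgeR's quasi-likelihood test on all 19122 genes that passed the filter on low counts, with the treatment as a block. Its spread is how far the si-MALAT1 difference varied between lines, and EPHA2 was chosen for that difference being lower in each. The line tests of EPHA2 are therefore not free of the choice. Each line enters with its control and its si-MALAT1 library. Between any lines, 8 of the 10 genes differed at an adjusted p under 0.05, beside 64.3% of all genes tested. Most genes differ between these lines, so 8 of 10 is near the background. EPHB3 and EPHB4 were not called (adjusted p = 0.284 and 0.32). By pairs of lines, 7 members differed between H1299 and H460 (52.6% of all genes), 6 between A549 and H460 (38.2%) and 7 between A549 and H1299 (48.9%).

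EPHA4, EFNA1 and EFNA5 had their highest levels in H460. EPHA4 was 18.2-fold higher in H460 than in H1299 (difference H1299 minus H460 in log2 scaled counts −4.19 ± 0.88, SD, n = 2 pairs of libraries, edgeR adjusted p = 0.000203) and 16.0-fold higher than in A549 (adjusted p = 0.000386). H1299 and A549 did not differ detectably in EPHA4 (log2 difference 0.19 ± 0.17, adjusted p = 0.65). EFNA1 ran from H460 through A549 to H1299, and each step passed the test, with H460 2.66-fold above A549 (adjusted p = 0.0014) and A549 3.43-fold above H1299 (adjusted p = 0.000465). EFNA5 took the same order, 3.19-fold from H460 to A549 (adjusted p = 0.00407) and 2.40-fold from A549 to H1299 (adjusted p = 0.00961). The last step missed the threshold without the A549 si-MALAT1 library (adjusted p = 0.0617, with 5.17e-05 to 0.0617 over all alternatives). EFNA4 was lowest in H1299, 5.09-fold below H460 (adjusted p = 0.000481) and 3.61-fold below A549 (adjusted p = 0.00137), and its difference between A549 and H460 did not pass (−0.49 ± 0.03, adjusted p = 0.131). In H1299, the line with the highest mean scaled count of EPHA2, the 3 A-type ephrins among the 10 genes were therefore at their lowest. EFNA3, outside the 10, was also lowest there, 7.46-fold below H460 and 3.55-fold below A549 (edgeR adjusted p = 0.0019 and 0.0125). EFNA2, another A-type ephrin outside the 10, had its highest mean scaled count there. In EFNA2, H1299 and A549 were not told apart (edgeR adjusted p = 0.303).

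EPHB2 had its highest level in A549, 33.6-fold above H460 (log2 difference 5.07 ± 0.04, edgeR adjusted p = 6.04e-05) and 4.98-fold above H1299 (adjusted p = 0.000381). H1299 in turn lay 6.75-fold above H460 (adjusted p = 0.000245). EFNB2 had the lowest level in A549, 10.99-fold below H1299 (adjusted p = 0.000273) and 5.99-fold below H460 (adjusted p = 0.000982). H1299 was 1.83-fold above H460 in EFNB2 (adjusted p = 0.027), a call that was lost when the H460 si-MALAT1 library (0.187), the H1299 control (0.052) or the H1299 si-MALAT1 library (0.167) was left out, with 0.015 to 0.187 over all alternatives. EFNB1 was 2.46-fold higher in A549 than in H1299 (adjusted p = 0.00178) and 1.80-fold higher than in H460 (adjusted p = 0.0116). The latter call was lost without the H460 control (0.0664), the A549 control (0.101) or the A549 si-MALAT1 library (0.104), with 0.000892 to 0.104 over all alternatives, and H1299 and H460 were not told apart in EFNB1 (adjusted p = 0.0688).

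EPHA2 differed far less between lines than EPHA4 or EPHB2. H1299 was 1.78-fold above H460 (log2 difference 0.83 ± 0.07, edgeR adjusted p = 0.012) and 1.54-fold above A549 (adjusted p = 0.0391), and A549 and H460 were not told apart (0.21 ± 0.38, adjusted p = 0.396). These calls are weak. Without the treatment as a block the adjusted p was 0.247 for H1299 against H460 and 0.482 for A549 against H1299. The first was lost without the H460 control (0.0578) or the H1299 si-MALAT1 library (0.0657), and the second without the H1299 si-MALAT1 library (0.17), without the A549 si-MALAT1 library (0.393) or with no filter on low counts (0.0559). Over all alternatives the adjusted p ran from 0.000323 to 0.247 for the first and from 0.0125 to 0.482 for the second. EPHB4 showed no detectable difference, its line means lying within 1.18-fold of each other, with log2 differences of 0.06 ± 0.17 (H1299 minus H460), −0.18 ± 0.05 (A549 minus H460) and −0.24 ± 0.13 (A549 minus H1299). The log2 differences of EPHB3, which had 17 to 37 reads per library, ran from −0.51 to 1.19 and did not pass (adjusted p from 0.171 to 0.539).

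**Figure D4:**
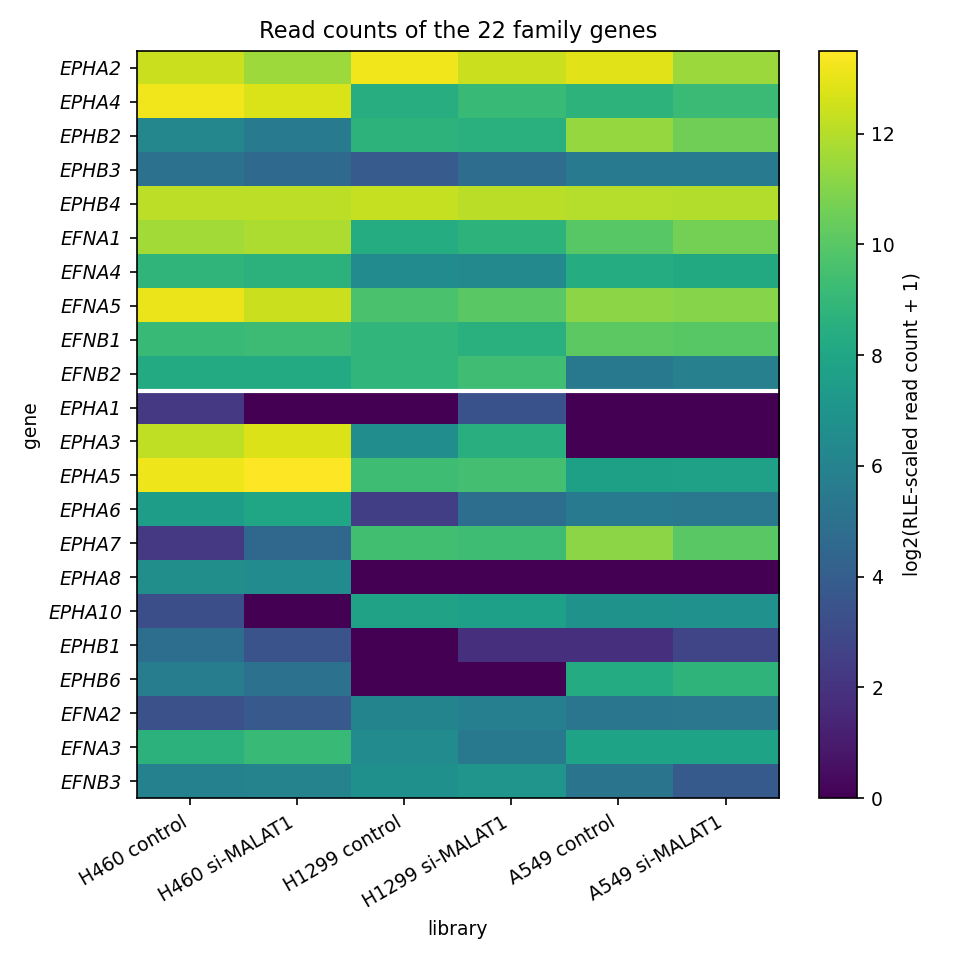
Log2(scaled read count + 1) as a colour scale for the 10 genes (above the white line) and the 12 other family genes (below it), with libraries as columns. EPHA4, EFNA1 and EFNA5 are highest in the H460 libraries and EPHB2 in those of A549, and EPHA3 is at 0 reads in both A549 libraries.

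Of the 12 other family genes, 8 had a mean of at least 50 reads, and EPHA1, EPHA8, EPHB1 and EFNA2 did not. EPHA3, a receptor of A-type ephrins, had 5076 and 7087 reads in H460 (log2 fold change 0.56), 121 and 409 for H1299 (1.88) and 0 in both A549 libraries, a count that allows up to 3 reads in each. EPHA5, known from neurons, had 9720 and 11816 reads for H460, 787 and 803 for H1299 and 153 and 179 for A549. EPHA7 had 4 and 23 reads for H460, 869 and 728 for H1299, and 1709 and 898 for A549, a log2 fold change of −1.07 in the last. The ephrin EFNA3 had 439 and 570 reads for H460, 115 and 50 for H1299, and 170 and 192 for A549. EFNB3, EPHA6, EPHA10 and EPHB6 had at most 373 reads in any library. With cell line as a block, edgeR called 0 of the 9 tested for a difference between si-MALAT1 and control (1 at an unadjusted p under 0.05), where it called 0.00523% of all genes, namely MALAT1 alone (adjusted p = 0.0381), and 2863 genes had an unadjusted p under 0.05. DESeq2 called 1 of the 5 it tested, EPHA3, as higher (adjusted p = 0.0224, beside 0.231 by edgeR). DESeq2 called 4.15% of 13561 genes higher and 4.25% lower. These 6 libraries leave 2 residual degrees of freedom.

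The proteins that carry Eph signals inside the cell were taken from 5 lists with 52 genes in all. edgeR called 0 of them, and 12 of the 52 had an unadjusted p under 0.05, beside 2863 of all 19122 genes tested. DESeq2 called 8, of which CDC42, KALRN, LIMK1, PAK1 and TIAM1 were higher and CRKL, PTPN11 and YES1 lower. It called 4.15% of all genes it tested higher and 4.25% lower, and these shares stand beside the count of each list below. CDC42, LIMK1 and PAK1 are named because of these calls, the others by the naming rule. TIAM1 stands in 2 of the lists. The DESeq2 value was the lowest adjusted p over the alternatives for each of these 8 genes and for EPHA3, and the highest was near 1, from edgeR without the replicate block. In the list of cytoplasmic adaptors and kinases, edgeR called 0 of 18 and DESeq2 called 2, both lower. YES1, a Src family kinase, had 8833 and 5206 reads for H460, 10256 and 4823 for H1299 and 8203 and 3886 for A549, with log2 fold changes of −0.68, −0.96 and −1.22 (adjusted p = 0.0751 by edgeR and 1.29e-07 by DESeq2). CRKL, an adaptor, had −0.59, −0.49 and −0.67 (0.0996 and 5.94e-05). PTK2, the focal adhesion kinase, and ANKS1B had values from 0.05 to 0.34 in the 3 lines.

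KALRN, an exchange factor known from dendritic spines, had 123 and 250 reads for H460, 16 and 36 for H1299 and 98 and 273 for A549 (log2 fold changes 1.10, 1.24 and 1.33, adjusted p = 0.12 by edgeR and 0.0088 by DESeq2). TIAM1, an exchange factor for RAC1, had 630 and 805 reads, 5228 and 7970, and 163 and 334 in the same order of lines (0.43, 0.74 and 0.89, adjusted p = 0.114 by edgeR and 0.00128 by DESeq2). ITSN1, an exchange factor for CDC42, had −0.34, −0.13 and −0.12.

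Of the 8 proteases, phosphatases and the ubiquitin ligase that act on Eph receptors or ephrins, DESeq2 called 1 and edgeR 0 (2 at an unadjusted p under 0.05). PTPN11, the phosphatase SHP2, had 17952 and 9720 reads for H460, 15874 and 7008 for H1299 and 10375 and 3983 for A549. Fold changes of PTPN11 were −0.80, −1.05 and −1.53 on the log2 scale (adjusted p = 0.0751 by edgeR and 4.35e-08 by DESeq2). ADAM10, which sheds ephrin-A ligands, had 0.01, 0.48 and 0.22. Among the 5 PDZ proteins of ephrin-B tails DESeq2 called TIAM1 and edgeR called 0 (2 at an unadjusted p under 0.05), and SDCBP (syntenin) had 0.02, 0.82 and 0.70. For the 5 kinases that phosphorylate EphA2 on its serine, both tools called 0 and neither gave an unadjusted p under 0.05, with values of 0.05, 0.24 and 0.09 for RPS6KA1 and 0.17, 0.04 and 0.06 for AKT2. PTPN11 and YES1 were the listed genes lower by at least 1.5-fold in all 3 lines, 2 of 52 beside 1.28% of all genes. KALRN was the one that was higher, 1 of 52 beside 1.19% of all genes.

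The genes whose levels over the 6 libraries lay nearest to those of EPHA2 were sought among 10825 genes with a mean of at least 500 reads, by the Euclidean distance between log2 scaled counts after centring each gene on its mean. The 5 nearest were PRKCI (distance 0.379), DDX58 (0.402), AKIRIN1 (0.432), RBBP4 (0.490) and CYB5R4 (0.493). PRKCI, an atypical protein kinase C of cell polarity, had 4384 and 2662 reads for H460, 9425 and 4613 for H1299, and 5025 and 2353 for A549. Like EPHA2 it was highest in the H1299 control, and it was lower after si-MALAT1 in each line (log2 fold changes −0.64, −0.90 and −1.24). The other 4 were also lower in each line, with values from −0.47 to −1.52. All 5 held TGAATCA or ATGAATC in the 3′ UTR, and EPHA2 did not. The share was 70.4% among the 142 genes lower by at least 1.5-fold in all 3 lines, and 19.5% among genes in general. The 5 were picked for a profile like that of EPHA2, and the words came from these same libraries, so nothing is read from this. No family gene with a mean of at least 500 reads was close, the nearest being EPHB4 at rank 1675 (distance 1.46) and EFNB1 at rank 7593. Family genes with fewer reads were not ranked. This likeness rests on 6 libraries and on the same contrast that chose EPHA2.

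**Figure D5:**
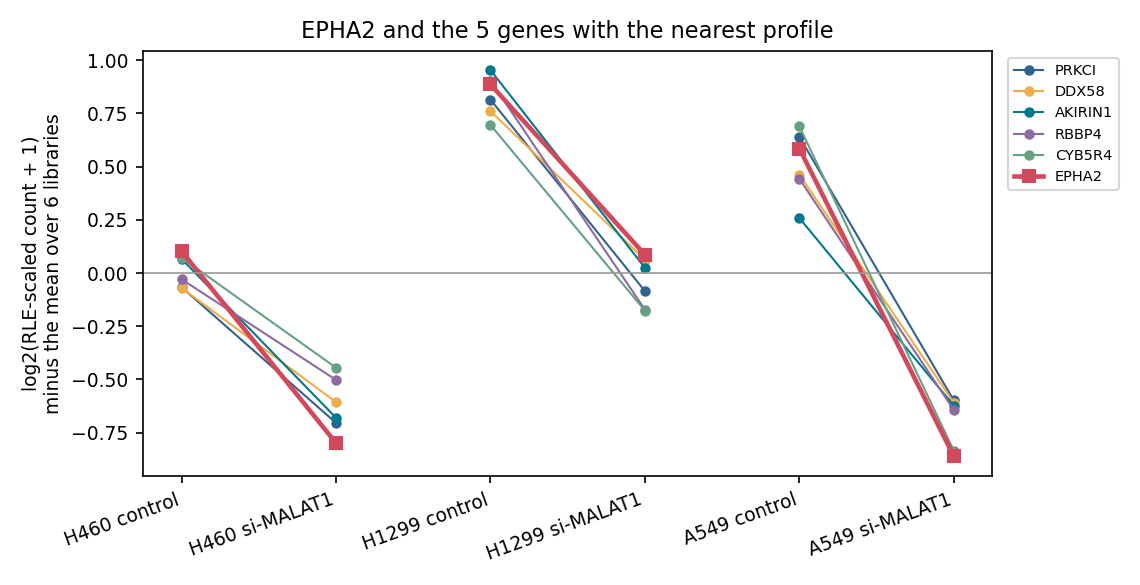
Log2 scaled counts, centred on each gene's mean, of EPHA2 and the 5 genes nearest to it, over the 6 libraries, with lines joining the control and si-MALAT1 library of each cell line. All 6 genes are lower after si-MALAT1 in each line and highest in the H1299 control.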

How the data were processed

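Libraries depleted of ribosomal RNA were made from the 6 samples with a TruSeq stranded kit. Per the labels and the study's methods, the authors aligned reads to hg38 with HISAT2 (2.1.0) and deposited read counts, FPKM and TPM per gene from StringTie, with RefSeq gene IDs. Per the submitters' processing notes, Trimmomatic, bcl2fastq (2.20.0) and StringTie (1.3.4b) were used, and whether the counting used strand is not given in the sources used here. The deposited table also has 18 columns of per-sample values of another study, which were not used.

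The members and lists were chosen with earlier results of these data known. Samples were grouped by label into control and si-MALAT1, paired by cell line (the pairing is that of the line itself). Counts were tested with edgeR (4.0.16) in R (4.3.3), quasi-likelihood, TMM scaling, low counts filtered, line and treatment as terms, p-values adjusted by Benjamini-Hochberg over 19122 genes. DESeq2 (1.42.0) on the same genes was the alternative. The p-values rest on the spread that line and treatment leave, which is how far the si-MALAT1 difference varied between lines. That spread holds no replicate within a line and condition, and it may be technical. Fold changes within a line were taken on log2(scaled count + 1) over genes with at least 1 read in each library. Intervals cover counting error only, and reads are not independent molecules. TPM and FPKM, as deposited, were used on log2(value + 1) as alternatives. The tests were tested on simulated data. No 2 libraries agreed within sampling noise. Named genes were the 10 members, other family genes with a mean of at least 50 reads, up to 2 genes per direction and list with the largest mean change among those moving one way in the 3 lines, and the 5 genes nearest to EPHA2 among those with a mean of at least 500 reads. The 3′ UTR windows were read from hg38 by the deposited annotation, in which 99.8% of coding starts read ATG. Results for a listed gene and for 1 of the signalling lists as a whole are not reported here.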

Additional observations from a re-analysis of the deposited data

Results flagged for a closer look

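Fold changes after si-MALAT1 took opposite directions between lines for a pair of members. EPHA4 had a log2 fold change of 0.75 in H1299 and 0.51 in A549 but −0.50 in H460. EFNA5 had 0.44 in H1299, −0.68 in H460 and −0.11 in A549. With 1 library per line and condition the difference was not tested for either gene. H460 was the line in which both had the most reads.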

How the results depend on the processing

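The fold changes of the members kept their value within the counting interval in 129 comparisons with another scaling or pseudocount, and left it in the other 21. Among the latter the sign turned for EPHB2 in H460 (0.018 by log2(TPM + 1) and 0.027 by log2(FPKM + 1)), where the counting interval lay below 0, and for EPHB2 in H1299 (0.63 and 0.52) and EPHB4 in H460 (−0.11 by log2(TPM + 1)), where it held 0. The scalings moved the median of all genes by at most 0.08 on the log2 scale. At an absolute log2 fold change of at least 1.5, 0 members were lower in H460, H1299, A549 or all 3 lines and 0 were higher in H1299 or A549. On log2(TPM + 1), members higher by 1.5-fold in H1299 numbered 1, which was EPHB2 (0.63) and neither EPHA4 (0.52) nor EPHB3 (0.10). On log2(FPKM + 1) there were 0. The added 1 draws fold changes of such low values towards 0. As deposited, the H1299 TPM was 1.13 and 2.05 for EPHA4 and 0.067 and 0.146 for EPHB3, control first. The FPKM was 0.834 and 1.458 for EPHA4 and 0.659 and 1.373 for EPHB2. Each of these pairs differed by more than 1.5-fold. By read counts per kilobase the EPHA2 share of the receptors was 23.7% and 13.8% in H460 (control and si-MALAT1). It was 60.8% and 48.9% in H1299 and 53.8% and 32.8% in A549.

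DESeq2 called 8 signalling genes, 1 other family gene and 1140 genes in all after si-MALAT1. Without the replicate block and without the filter on low counts, 0 genes of all were called. With a cell line left out in turn, signalling calls ranged from 0 to 2 and calls over all genes from 0 to 163. The upper values are those without H460, where the signalling genes called were PTPN11 and YES1 (edgeR adjusted p = 0.0352 and 0.0383), and without H1299 or A549 there were 0 calls. The cause was not tested. Between lines, the adjusted p of a member stayed on its side of the threshold in 384 comparisons and lost its call in 16, which concern EPHA2, EFNA5, EFNB1 and EFNB2 and are given with those genes. For EPHA2 over any line it was 0.403 without the replicate block and 0.11 without the H1299 si-MALAT1 library. The calls of EPHA2 for H1299 against H460 and for A549 against H1299 were also lost without the block, as given above. The block changed no call of another member. The counts of members differing between lines stayed within 1.5 times under each alternative.

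EPHB3, EFNB2 in A549 and EPHB2 in H460 after si-MALAT1 had fewer than 50 reads per library, which sets the wide counting intervals of their fold changes.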
